A study of Rattus norvegicus with 20 samples.

Results

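The genes of fatty acid synthesis, elongation and desaturation were followed in gastrocnemius muscle of tumour-bearing rats given chemotherapy with or without dietary fish oil. The set was chosen by gene symbol and holds 10 genes of the 32495 named rows of the count table: Srebf1, Me1, Acly, Acaca, Fasn, Elovl6, Elovl5, Scd, Fads2 and Fads1. The rule used gene symbols and no measured value, and long-chain n-3 fatty acids are known to lower these transcripts in liver. Of the 10, 9 passed the filter on low counts and were tested with 11716 genes in all. Elovl6 had 0 counts in each of the 20 libraries.

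All rats were female Fischer 344 rats carrying a Ward colorectal carcinoma that had grown for 2 weeks. TUMOUR STD rats (5 libraries) ate the standard diet and had no chemotherapy. CHEMO STD rats (7 libraries) ate the standard diet and received 2 cycles of CPT-11 (irinotecan) followed by 5-FU (5-fluorouracil) at 50 mg/kg. CHEMO FO rats (8 libraries) received the same chemotherapy and, from its first day, an isocaloric diet containing fish oil as a source of EPA and DHA. Muscle was taken 7 days after the last cycle. Every group carried the tumour, and neither a tumour-free group nor a fish oil group without chemotherapy was part of the design.

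De novo lipogenesis turns carbohydrate carbon into fatty acids. Acly splits citrate into acetyl-CoA, Acaca carboxylates acetyl-CoA to malonyl-CoA, Fasn joins these units into palmitate, and malic enzyme Me1 supplies NADPH. Elovl6 and Elovl5 lengthen fatty acids, Scd inserts a double bond to make monounsaturated fatty acids, and Fads2 and Fads1 are the delta-6 and delta-5 desaturases that make long polyunsaturated fatty acids from dietary precursors. Srebf1 encodes the transcription factor SREBP-1, whose activity is restrained by polyunsaturated fatty acids. In rodents the pathway is most active in liver and adipose tissue and runs at a low rate in muscle, so that fat cells lying between muscle fibres can add their own transcripts to a muscle sample. In a bulk sample, fewer cells of a type and less RNA per cell cannot be told apart.

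Each TUMOUR STD library held 5422118 to 10857477 counts on named genes, against 3020821 to 10516783 in CHEMO STD and 3035841 to 9119394 in CHEMO FO. CHEMO STD replicates 1 and 2 differed by less than other pairs did: their chi-square per gene was 2.23, while the 58 other same-group pairs had 13.7 to 255. They were summed and counted as 1 sample, which leaves n = 6 in CHEMO STD and 19 samples in all. Muscle fibre markers summed to 160000 to 296000 CPM (read counts divided by the scaled size of the library) in all samples, and CHEMO FO replicate 18 held the lowest of these sums. All other samples were at 231000 CPM or above, but single markers varied within that sum. Among these other samples Acta1 ran from 26800 to 62200 CPM and Neb from 15200 to 37000 CPM. CHEMO STD replicates 1 and 2, counted together, had the highest Acta1 and the lowest Neb. In CHEMO FO replicate 18 the macrophage markers summed to 893 CPM, against 237 to 559 in the others. Keratinocyte markers summed to 614 CPM in TUMOUR STD replicate 10 and 142 CPM in CHEMO FO replicate 16, and to at most 13.8 CPM elsewhere. Values without these samples are given beside the results they were seen to move.

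The promoters of 4 genes are shown because their transcripts moved together from rat to rat in the correlations given further on: the desaturase pair Fads1 and Fads2, and Scd and Acly, which went with Fasn. Each line gives the 250 bases before the annotated start in RefSeq (build GRCr8), 5′ to 3′ on the strand of the gene, with matches to the searched letters in capitals.
Fads1, chr1:216252442-216252691, plus strand: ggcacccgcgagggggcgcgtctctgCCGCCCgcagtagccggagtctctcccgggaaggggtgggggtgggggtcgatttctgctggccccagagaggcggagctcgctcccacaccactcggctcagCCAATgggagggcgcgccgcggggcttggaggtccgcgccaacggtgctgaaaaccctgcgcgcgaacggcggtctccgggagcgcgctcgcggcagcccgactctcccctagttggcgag
Fads2, chr1:216172034-216172283, minus strand: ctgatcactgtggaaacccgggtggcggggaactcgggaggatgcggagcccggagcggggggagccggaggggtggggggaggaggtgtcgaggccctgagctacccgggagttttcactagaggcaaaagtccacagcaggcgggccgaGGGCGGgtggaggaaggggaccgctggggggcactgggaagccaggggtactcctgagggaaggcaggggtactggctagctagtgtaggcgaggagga
Scd, chr1:253231732-253231981, minus strand: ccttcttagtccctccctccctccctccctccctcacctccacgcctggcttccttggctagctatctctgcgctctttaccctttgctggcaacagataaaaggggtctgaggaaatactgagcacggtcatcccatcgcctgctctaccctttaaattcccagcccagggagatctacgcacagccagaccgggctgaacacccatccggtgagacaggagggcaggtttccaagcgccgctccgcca
Acly, chr10:85963632-85963881, minus strand: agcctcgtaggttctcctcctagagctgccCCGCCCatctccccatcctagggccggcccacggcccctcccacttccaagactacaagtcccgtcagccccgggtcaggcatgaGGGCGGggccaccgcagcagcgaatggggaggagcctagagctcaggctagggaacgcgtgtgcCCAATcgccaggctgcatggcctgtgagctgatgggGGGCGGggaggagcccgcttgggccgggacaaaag

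The letters searched on both strands were TCACNCCAC (a sterol response element, the kind of site SREBP-1 binds), CCAAT (the box bound by NF-Y), CACGTG (an E-box, bound by USF factors) and GGGCGG (a GC box, bound by Sp1), and no pair of these matches overlapped in the printed sequences. RefSeq promoters were matched for 7 of the 10 genes, in 8 entries, since Srebf1 has 2. Fasn, Acaca and Elovl6 had no entry. None of the 8 entries held the sterol response element letters in this window, which 0.974% of all 33469 promoters held. CCAAT was present in 5 of the 8 entries (Fads1, Elovl5, Acly and both of Srebf1) against 34% of all promoters, and the GC box in 6 of 8 (Fads1, Fads2, Acly, both of Srebf1, and Me1) against 30.5%. CACGTG was found in Elovl5 alone, against 5.59% of all promoters. In the printed sequences CCAAT began 121 bases before the Fads1 start and 71 bases before the Acly start. The Scd window held none of the 4. The Fads1, Fads2 and Acly windows were rich in G and C (73.2%, 68% and 68%), the Scd window less so (58.8%), and the median promoter had 51.2%. A match is a run of letters and is not shown to be a binding site.

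Dietary fish oil was the first question: whether the set was lower in CHEMO FO than in CHEMO STD. No member was differentially expressed (0 of 9). Calls needed a change of at least 1.5-fold and p below 0.05 without adjustment, and 1.66% of all genes tested were called in this comparison, 0.615% higher and 1.05% lower. Of the members, 5 had a fitted fold change above zero and 4 below it, with a median log2 fold change of 0.05 beside -0.01 over all genes tested. Their adjusted p values ran from 0.974 to 1 (edgeR quasi-likelihood test, Benjamini-Hochberg adjustment over all genes tested). No gene of the table passed an adjusted p of 0.05 in edgeR (0 genes, with 528 at an unadjusted p below 0.05), and DESeq2 and limma voom also gave 0, with 548 and 1339 at the unadjusted threshold. For every member, the values of the 2 groups overlapped.

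The intervals differ in what they leave possible. For Me1 the 95% confidence interval of the change ran from 0.783-fold to 1.23-fold, for Elovl5 from 0.735-fold to 1.3-fold, for Acaca from 0.735-fold to 1.34-fold and for Fads1 from 0.752-fold to 1.43-fold. A change of 1.5-fold in either direction lay outside these 4 intervals. Fads2 ran from 0.59-fold to 1.2-fold and Acly from 0.854-fold to 1.62-fold. Srebf1 ran from 0.63-fold to 1.88-fold. For Fasn (0.729-fold to 5.08-fold) and Scd (0.367-fold to 8.19-fold), changes of several fold were within the interval, and the data set no useful limit on them.

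**Figure D1:**
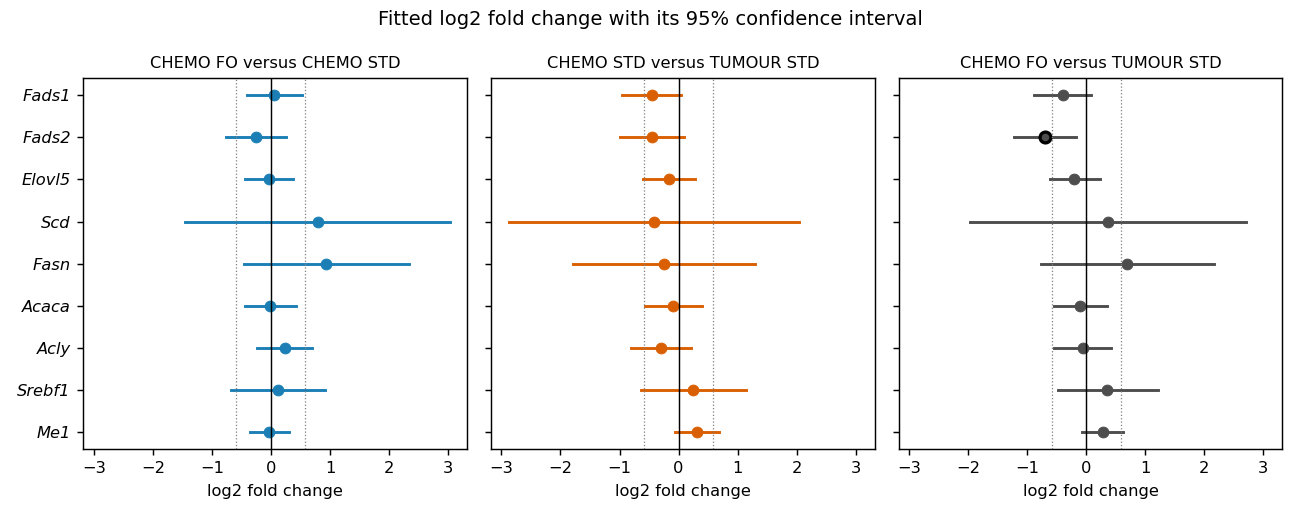
Fitted log2 fold change (x axis) of the 9 tested genes (rows) in each of the 3 comparisons, with bars for the 95% confidence interval of the edgeR fit and dotted lines at a 1.5-fold change. The intervals of Scd and Fasn are the widest in each comparison, and Fads2 in CHEMO FO versus TUMOUR STD, ringed in black, is the one value that was called.

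Srebf1, the regulator of the set, averaged 298 ± 165 CPM in CHEMO FO (SD, n = 8), 274 ± 73.8 in CHEMO STD (n = 6) and 231 ± 47.8 in TUMOUR STD (n = 5). In CHEMO FO its lowest, median and highest values were 20.9, 306 and 545 CPM. In CHEMO STD they were 196, 267 and 389 CPM, so 7 of the 8 CHEMO FO samples had between 124 and 545 CPM and 1 stood far below every other sample of the study. The 5 TUMOUR STD samples had 158, 210, 272, 269 and 248 CPM. The order of the means, CHEMO FO over CHEMO STD over TUMOUR STD, was not separated by more than the spread: the log2 fold change of CHEMO FO over CHEMO STD was 0.12 (SE 0.383) and that of CHEMO STD over TUMOUR STD 0.25 (SE 0.429). The sign of the first depended on the scale, since the difference of mean log2 CPM was -0.26 (two-sided exact permutation test p = 0.819). The annotation gives 1 row for the gene, so transcripts for SREBP-1a and SREBP-1c, the proteins it encodes, were not separated.

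Me1 had the smallest within-condition SD of the 9 members when the 3 conditions were pooled (0.31 on the log2 scale). It had a median of 190 CPM (127 to 249) in CHEMO FO and 195 CPM (160 to 229) in CHEMO STD, and 169, 198, 106, 177 and 137 CPM in the TUMOUR STD samples. The standard-diet chemotherapy group lay 0.31 above TUMOUR STD on the log2 scale (SE 0.178, unadjusted p = 0.0973, adjusted p = 0.719 by edgeR) and the fish oil group 0.28 above it (SE 0.168), neither beyond the spread. Between CHEMO FO and CHEMO STD the log2 fold change was -0.03 (SE 0.158).

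Acly and Acaca, the first steps from citrate to malonyl-CoA, differed little between the groups. Acly had medians of 34.5 CPM in CHEMO FO (28.4 to 89.6), 34.3 in CHEMO STD (28.9 to 43.7) and 36.9 in TUMOUR STD (31.8 to 65.7). Acaca had medians of 34 CPM in CHEMO FO (25.7 to 84.2), 38.3 in CHEMO STD (31 to 52.1) and 40.7 in TUMOUR STD (34.6 to 55). In both, the highest value of the study was CHEMO FO replicate 20 and the highest of TUMOUR STD was replicate 10. The log2 fold change of CHEMO FO over CHEMO STD was 0.23 for Acly (SE 0.223) and -0.01 for Acaca (SE 0.21), and without CHEMO FO replicate 20 these became -0.04 and -0.27.

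Fasn, the fatty acid synthase, averaged 104 ± 180 CPM in CHEMO FO (SD, n = 8), 54.5 ± 40.2 in CHEMO STD (n = 6) and 64.4 ± 36.9 in TUMOUR STD (n = 5). The CHEMO FO samples had a lowest value of 14.2, a median of 33.5 and a highest value of 543 CPM, and the CHEMO STD samples 22.8, 44.9 and 131 CPM. The mean of CHEMO FO was thus the higher and its median the lower. The TUMOUR STD samples had 47.3, 33.6, 128, 52.9 and 60.3 CPM. CHEMO FO replicate 20 alone carried the difference in means: the log2 fold change of CHEMO FO over CHEMO STD was 0.94 (SE 0.676, unadjusted p = 0.176, adjusted p = 0.974 by edgeR) with it and -0.42 without it. DESeq2 with its default settings gave -0.37. These settings can replace an outlying count in a group of 8, and whether the replicate 20 count was kept was not checked.

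Scd, the stearoyl-CoA desaturase, was the most variable of the 9 members. The within-condition SD of its log2 CPM was 2.43, against a median of 0.36 over all genes tested, and 1 tested gene had a larger SD. The CHEMO FO samples had a lowest value of 0.636, a median of 16.2 and a highest value of 749 CPM. The 6 CHEMO STD samples had 10.8, 41.6 and 236 CPM, and the TUMOUR STD samples 153, 9.15, 234, 17.6 and 39.2 CPM. The lowest CHEMO FO value rests on 7 counts and the highest on 5605. In CHEMO FO, 4 samples lay below the lowest sample of either standard-diet group and 1 lay above the highest. The fitted log2 fold change of CHEMO FO over CHEMO STD was 0.79 (SE 1.08, adjusted p = 0.975 by edgeR), while the difference of mean log2 CPM was -1.26 (two-sided exact permutation test p = 0.38). Without CHEMO FO replicate 20 the fit gave -1.43, and without CHEMO STD replicate 7 it gave 1.79. Reads that fit both Scd and its close relatives Scd2 and Scd4 may have been split between them, since how the authors counted such reads was not given in the sources used here.

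Elovl5, which lengthens polyunsaturated fatty acids between the desaturation steps, had 12.7 ± 3.58 CPM in CHEMO FO, 12.7 ± 2.84 in CHEMO STD and 14.4 ± 3.92 in TUMOUR STD (SD, n = 8, 6 and 5). Its range was 8.6 to 18.2 CPM in CHEMO FO and 10.4 to 17.5 in CHEMO STD. Elovl6, which lengthens palmitate to stearate, was listed at 0 in every library. A count of 0 allows up to 3 counts, which is 0.276 to 0.993 CPM depending on the library and covers counting error only. It limits reads on that row of the annotation, and whether the row covers the transcribed part of the gene was not tested.

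The delta-6 desaturase Fads2 gave the one call of the set. It averaged 8.09 ± 2.93 CPM in CHEMO FO (SD, n = 8), 9.37 ± 2.09 in CHEMO STD (n = 6) and 12.9 ± 4.95 in TUMOUR STD (n = 5). The lowest, median and highest values were 4.45, 7.46 and 12.8 CPM in CHEMO FO and 7.31, 8.76 and 12.5 CPM in CHEMO STD. The TUMOUR STD samples had 6.78, 9.65, 16.5, 12.8 and 19 CPM, so 2 TUMOUR STD samples lay above every chemotherapy sample while the lowest lay within the range of CHEMO FO. Between CHEMO FO and CHEMO STD the log2 fold change was -0.25 (SE 0.248, adjusted p = 0.974 by edgeR). Between CHEMO FO and TUMOUR STD Fads2 fell by 0.70 on the log2 scale (SE 0.252, 95% confidence interval of the fold change 0.428 to 0.882, unadjusted p = 0.0105), which did not pass the adjustment (adjusted p = 0.486 by edgeR). On log2 CPM its p was 0.0598 (exact permutation test, two-sided). The call was lost with TUMOUR STD replicate 12 left out (-0.52, unadjusted p = 0.0565 by edgeR).

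The delta-5 desaturase Fads1 averaged 25.3 ± 9.1 CPM in CHEMO FO, 24.1 ± 5.08 in CHEMO STD and 33.1 ± 9.76 in TUMOUR STD (SD, n = 8, 6 and 5). The lowest, median and highest values were 13.1, 27.3 and 39.8 CPM in CHEMO FO and 18.8, 24.3 and 32.1 CPM in CHEMO STD. The TUMOUR STD samples had 27.3, 20, 41.1, 33.5 and 43.6 CPM, of which 2 exceeded every chemotherapy sample. Neither chemotherapy group differed from TUMOUR STD beyond the spread: the log2 fold change was -0.45 for CHEMO STD (SE 0.246, adjusted p = 0.719 by edgeR) and -0.40 for CHEMO FO (SE 0.231, adjusted p = 0.593).

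**Figure D2:**
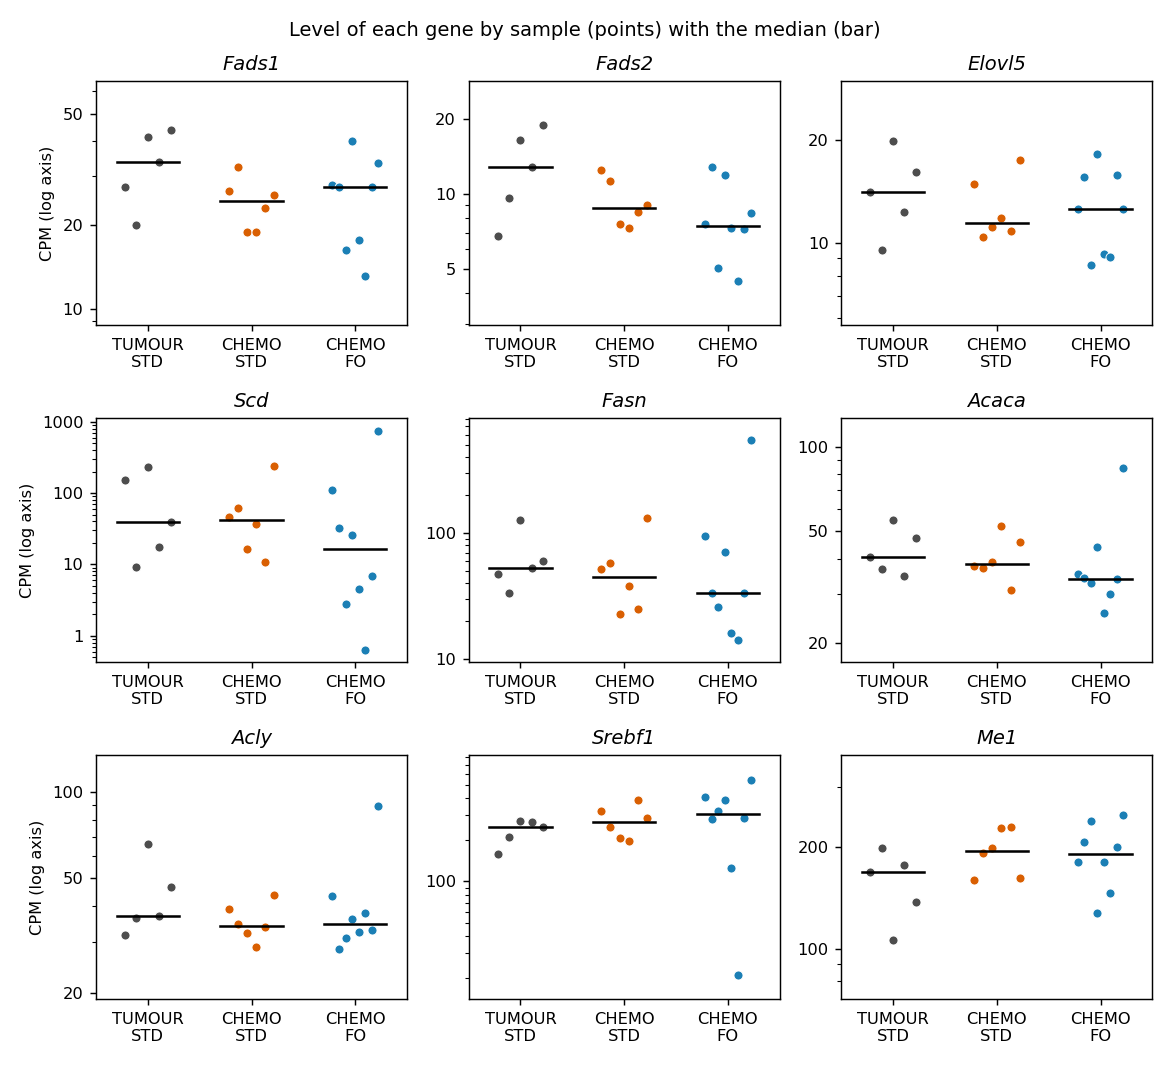
Level of each of the 9 genes with counts, in CPM on a log axis, with 1 point for each sample and a bar at the median of TUMOUR STD (n = 5), CHEMO STD (n = 6) and CHEMO FO (n = 8). The groups overlap in every panel, and in Scd the CHEMO FO samples run from 0.636 to 749 CPM.

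Chemotherapy on the standard diet was the second question. Against TUMOUR STD, 2 members lay higher in CHEMO STD (Srebf1 and Me1) and 7 lower, with a median log2 fold change of -0.25 beside 0 over all genes. None was called (0 of 9, where 2.38% of all genes were called, 0.93% higher and 1.45% lower), and adjusted p values ran from 0.719 to 0.946 by edgeR. The smallest unadjusted p values were those of Fads1 (0.0776), Me1 (0.0973) and Fads2 (0.101). Fads2 passed the thresholds with TUMOUR STD replicate 8 left out (-0.60, unadjusted p = 0.0285, adjusted p = 0.48 by edgeR) and Fads1 with TUMOUR STD replicate 9 left out (-0.59, unadjusted p = 0.0249, adjusted p = 0.762). Scd, Fasn and Acaca turned sign without TUMOUR STD replicate 10, to 0.31, 0.17 and 0.02.

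Fish oil and chemotherapy together were set against TUMOUR STD last. Fads2 was the 1 member of 9 called lower, where 2.51% of all genes were called lower, 1.09% higher and 3.6% in either direction. Of the 9, 4 lay higher and 5 lower, with a median log2 fold change of -0.06 beside 0 over all genes. Both chemotherapy groups were compared with the same TUMOUR STD samples, so these 2 comparisons are not independent. Side by side, the changes against TUMOUR STD in CHEMO STD and in CHEMO FO were -0.45 and -0.40 for Fads1, -0.45 and -0.70 for Fads2, -0.17 and -0.20 for Elovl5, and 0.31 and 0.28 for Me1. The corresponding pairs were -0.09 and -0.10 for Acaca, -0.29 and -0.06 for Acly, 0.25 and 0.36 for Srebf1, -0.25 and 0.70 for Fasn and -0.42 and 0.37 for Scd. Without TUMOUR STD replicate 10, Elovl5 stood at -0.01 and -0.05, Me1 at 0.19 and 0.17, and Acly at -0.09 and 0.14. In CHEMO FO the same omission gave 1.10 for Scd, 1.11 for Fasn and 0.01 for Acaca.

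Rats within a condition differed widely in 3 of the members. The within-condition SD of log2 CPM was 2.43 for Scd, 1.29 for Fasn (34 of the 11716 genes tested had a larger one) and 1.03 for Srebf1 (124 had a larger one). The other 6 members lay between 0.31 (Me1) and 0.48 (Fads2), on both sides of the median gene at 0.36. In CHEMO FO the SD of Scd was 3.09, in CHEMO STD 1.55 and in TUMOUR STD 1.98. That of Srebf1 was 1.51 in CHEMO FO, 0.38 in CHEMO STD and 0.33 in TUMOUR STD. The difference in spread between the groups was not tested.

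A pair of CHEMO FO samples stood at opposite ends. CHEMO FO replicate 20 had the highest value of all 19 samples in Scd (749 CPM, next 236), Fasn (543, next 131), Acaca (84.2, next 55), Acly (89.6, next 65.7), Srebf1 (545, next 410) and Me1 (249, next 239), while its Fads1, Fads2 and Elovl5 ranked 5, 11 and 10 of 19. CHEMO FO replicate 18 had the lowest value in Srebf1 (20.9 CPM, next 124), Scd (0.636, next 2.78), Fasn (14.2, next 16.2), Fads1 (13.1, next 16.2) and Fads2 (4.45, next 5.06). Its Acly ranked 7 of 19, at 37.9 CPM. With both left out, the log2 fold change of CHEMO FO over CHEMO STD was -1.19 for Scd, -0.26 for Fasn, -0.07 for Acly and 0.04 for Elovl5, and no member was called in that comparison.

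**Figure D3:**
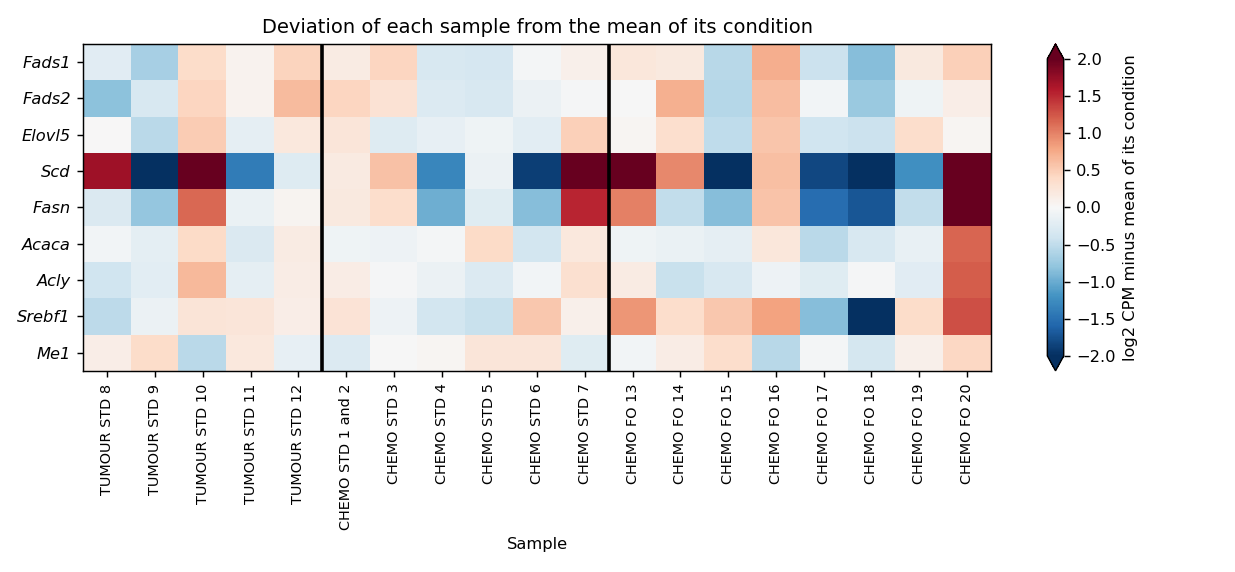
Log2 CPM of the 9 genes (rows) in the 19 samples (columns) as the difference from the mean of the sample's own condition, in colour from -2 to 2, with values beyond these limits drawn in the end colours and black lines between conditions. CHEMO FO replicate 20 is high from Scd to Srebf1, CHEMO FO replicate 18 is low in Srebf1, Scd, Fasn, Fads1 and Fads2, and Scd has the deepest colours in all 3 conditions.

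**Figure D4:**
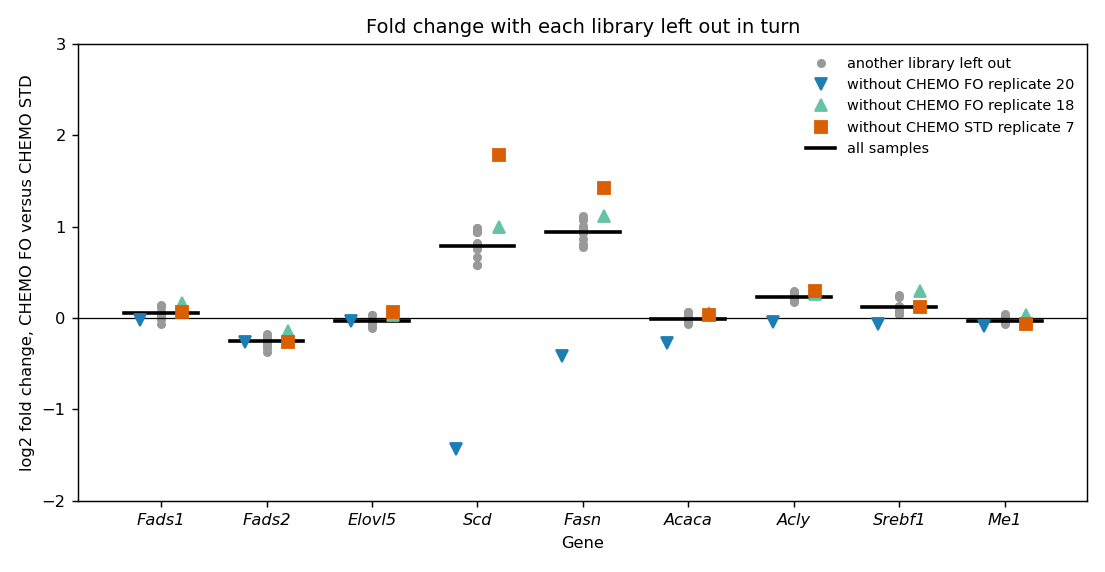
Log2 fold change of CHEMO FO over CHEMO STD (y axis) for each gene (x axis) with all 19 samples (bar) and with single libraries left out (symbols). Without CHEMO FO replicate 20, Fasn moves from 0.94 to -0.42 and Scd from 0.79 to -1.43, while Fads1 stays between -0.06 and 0.16 whichever library is left out.

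Within conditions, most members varied together from rat to rat. Over the 19 samples, with each gene centred within its condition, 29 of the 36 pairs of members correlated positively, and 13 had an adjusted p below 0.05 (100000 permutations within conditions, adjusted over the 36 pairs). All samples of a pair share their library, so errors of scaling are shared too. Outside the set, the muscle fibre marker Acta1 had 26800, 34300, 61500, 44300 and 62000 CPM in TUMOUR STD replicates 8 to 12. Fads1 there had 27.3, 20, 41.1, 33.5 and 43.6 CPM. In CHEMO FO both were lowest in replicate 18, then in replicate 15. CHEMO STD replicate 3 differed, with the highest Fads1 of its group (32.1 CPM) and an Acta1 of 38200 CPM. The fibre markers did not all move alike. In TUMOUR STD replicates 8 to 12 Ckm rose and fell with Acta1. Neb ran the other way there (35400, 33600, 19600, 27500 and 20000 CPM), and Myh4 stayed between 94100 and 105000 CPM. Correlations of the members with fibre markers were not computed. The tightest pair was Scd and Fasn (Pearson r = 0.91, permutation p = 1e-05, the smallest possible, adjusted p = 0.00036; Spearman rho = 0.85, permutation p = 2e-05), and r was 0.84 without CHEMO FO replicates 18 and 20. Fasn also correlated with Acaca (r = 0.85, adjusted permutation p = 0.0036) and with Acly (r = 0.83, adjusted permutation p = 0.0036), and without the same samples r was 0.66 and 0.73. Acaca and Acly correlated at r = 0.76 (adjusted permutation p = 0.0274), but at 0.15 without CHEMO FO replicate 20 and TUMOUR STD replicate 10, so this relation rests on those samples.

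The desaturases also varied together. Fads1 and Fads2 correlated at r = 0.81 (permutation p = 0.00028, adjusted p = 0.0036) and rho = 0.82, with r = 0.71 when CHEMO FO replicates 15 and 18 were left out. Fads1 also correlated with Elovl5 (r = 0.76, adjusted permutation p = 0.00618; 0.67 without those samples), Fasn (r = 0.69, adjusted permutation p = 0.0132), Scd (r = 0.68) and Srebf1 (r = 0.67, adjusted permutation p = 0.0102), with r of 0.60, 0.50 and 0.66 for these 3 without the same samples. The samples with keratinocyte RNA, TUMOUR STD replicate 10 and CHEMO FO replicate 16, had the highest Elovl5 (19.9 and 18.2 CPM). These r were not computed without both of them. Fads2 correlated with Elovl5 (r = 0.64, adjusted permutation p = 0.0274, and 0.56 without TUMOUR STD replicates 10 and 12). Fads2 with Scd and with Fasn gave r = 0.40 each, with adjusted permutation p values of 0.196 and 0.178, while by rank Fads2 and Fasn passed (rho = 0.59, adjusted permutation p = 0.0248). No correlation of Me1 with another member passed the adjustment, and its r ran from -0.56 (with Elovl5, adjusted permutation p = 0.0648) to 0.25 (with Srebf1). These values depended on single samples: without CHEMO FO replicates 18 and 20, r of Me1 was -0.68 with Fasn and -0.60 with Scd, from -0.06 and -0.07 over all samples. Without CHEMO FO replicate 20 and TUMOUR STD replicate 10, it was -0.65 with Acly, from -0.18.

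The genes most like the set over the 19 samples, by Pearson r with the mean of the standardised members, were Scd2, a desaturase close to Scd (r = 0.87), the carboxylesterase Ces1d (0.82), the lipid droplet protein Cidec (0.81), Pnpla3 (0.81) and Cfap410 (0.80). For single members, the most alike gene was Plin1, the perilipin that coats the fat droplet of adipocytes, for Scd (r = 0.95), Scd for Fasn (0.91), Fasn for Acaca (0.85) and transketolase Tkt for Acly (0.87). It was Tln2 for Srebf1 (0.95), Ppp3cb for Me1 (0.96), Dolk for Fads1 (0.89), Pik3r2 for Fads2 (0.89) and the locus AABR07012583.2 for Elovl5 (0.88). These r were picked as the highest of all genes tested and are a description, given without a test.

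Markers of fat cells moved with part of the set. Of 17 listed adipocyte markers, 16 were in the table and 13 were tested, Adig was at 0 in every library, and none was called in any of the 3 comparisons. Their summed level ran from 1640 to 1890 CPM in TUMOUR STD, from 1580 to 2460 in CHEMO STD and from 823 to 2820 in CHEMO FO, the lowest being replicate 18 and the highest replicate 20. Gpd1, Lpl and Plin4 made up 74.8% to 94.1% of that sum, so it mostly shows these 3 genes. Whether their RNA came from fat cells or from muscle fibres was not tested. Adiponectin (Adipoq), the fat cell hormone, was therefore also used by itself, a choice made after the data were seen. Gpd1 had 199 CPM in CHEMO FO replicate 18, against 906 to 1640 CPM in the other samples. The muscle fibre marker sum was also lowest in that replicate (160000 CPM). The adipocyte sum correlated with Scd (r = 0.72, adjusted permutation p = 0.0125), Srebf1 (r = 0.85, adjusted permutation p = 0.015) and Fads1 (r = 0.59, adjusted permutation p = 0.0262). Without CHEMO FO replicates 18 and 20 these were 0.53, 0.24 and 0.30, so the relations with Srebf1 and Fads1 rest on those samples. Adipoq had 84.2 CPM in CHEMO FO replicate 20 and 120 CPM in CHEMO STD replicate 7, the sample with the next highest Fasn and Scd, and 3.03 to 54.9 CPM in the others. Scd correlated with Adipoq at r = 0.93 (permutation p = 1e-05, the smallest possible, adjusted p = 0.00027 over 27 relations of members with marker levels; rho = 0.95) and at 0.92 without those 2 samples. Fasn did so at r = 0.85 (adjusted permutation p = 0.00027; 0.77 without them), Acly at 0.69 and Acaca at 0.68. Elovl5 (r = 0.66, adjusted permutation p = 0.0147) and Fads1 (r = 0.59, adjusted permutation p = 0.0326) also went with Adipoq, at 0.71 and 0.60 without those samples. For Fads2 r was 0.33 (adjusted permutation p = 0.218), for Srebf1 0.42 (0.147) and for Me1 -0.27 (0.309). CHEMO STD replicate 7, with more Adipoq than CHEMO FO replicate 20, had less Fasn (131 against 543 CPM) and less Scd (236 against 749 CPM). The other fat cell markers were divided between these samples. Plin1, Plin4, Cidea, Cfd, Lep and Pck1 were also higher in CHEMO STD replicate 7. Cidec, Fabp4, Retn, Pparg, Cebpa, Lpl, Slc36a2, Gpd1 and the adipocyte sum were higher in CHEMO FO replicate 20. The part of fat cells in the spread of the set was not tested.

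**Figure D5:**
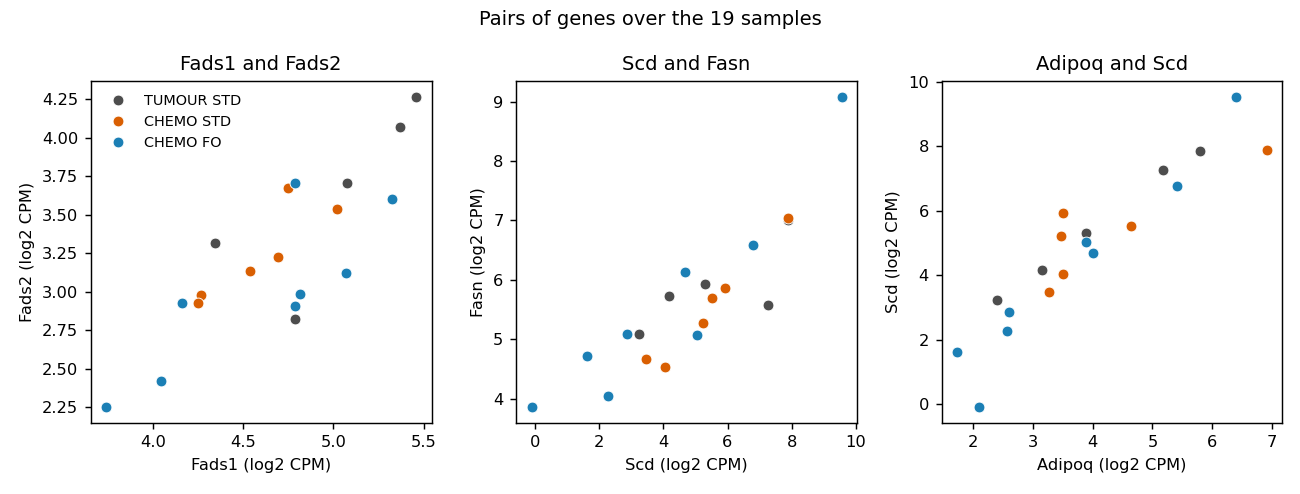
Log2 CPM of Fads1 and Fads2, of Scd and Fasn, and of Adipoq and Scd (axes) in the 19 samples (points, coloured by condition). The points of the 3 conditions lie along shared lines, and CHEMO FO replicate 20 is the top point for Fasn and for Scd.

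Markers of Schwann cells, which make long-chain lipids for myelin, moved with some of the members and with the diet comparison. Of 18 listed, all were in the table, 9 were tested, and 6 were called lower in CHEMO FO than in CHEMO STD, among them Mbp (log2 fold change -1.12), Mal (-0.97), Ugt8 (-1.33) and Prx (-0.82), each with an adjusted p of 0.974 by edgeR. With CHEMO STD replicates 1 and 2 both left out 0 were called, by limma voom 0, and 3 without CHEMO STD replicate 7 or CHEMO FO replicate 13. The summed level of the list ran from 103 to 194 CPM in CHEMO FO, from 123 to 525 in CHEMO STD and from 131 to 541 in TUMOUR STD. It correlated with Elovl5 (r = 0.69, adjusted permutation p = 0.00486), Scd (r = 0.56, adjusted permutation p = 0.00628), Acly (r = 0.50, adjusted permutation p = 0.015), Fasn (r = 0.49, adjusted permutation p = 0.0147) and Fads1 (r = 0.45, adjusted permutation p = 0.0486), and negatively with Me1 (r = -0.59, adjusted permutation p = 0.015). Fads2 (r = 0.48), Acaca (r = 0.30) and Srebf1 (r = 0.19) did not pass, with adjusted permutation p values of 0.053, 0.149 and 0.207. Without CHEMO STD replicates 1 and 2 and TUMOUR STD replicate 10, r fell to 0.36 for Acly and stood at -0.35 for Me1, and for the other members that passed it was 0.46 to 0.67. The part of Schwann cells in these levels was not tested.

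Few partners of the pathway were called. Of 20 tested regulators and partners of fatty acid synthesis, 14 lay higher and 6 lower in CHEMO FO than in CHEMO STD. Over all genes tested, 48.7% lay higher. The median of the 20 was 0.18 on the log2 scale, and edgeR called 0 of them in each of the 3 comparisons. In CHEMO FO versus CHEMO STD DESeq2 called 1 gene of this list, as did edgeR without CHEMO FO replicate 14, 17 or 20. Insig1, which holds SREBP proteins back in the endoplasmic reticulum, stood at 0.53 (SE 0.285, adjusted p = 0.974 by edgeR), and Scap, which escorts them to the Golgi, at 0.23 (SE 0.165). The Insig1 medians were close, at 37.2 CPM in CHEMO FO and 34.6 in CHEMO STD. CHEMO FO replicate 18 had 139 CPM of Insig1, where the next highest sample had 60.4. Of 12 tested elongation and desaturation partners, 7 lay higher and 5 lower in CHEMO FO than in CHEMO STD, and 0 were called. Scd2 was called lower in CHEMO FO than in TUMOUR STD (log2 fold change -0.72, SE 0.307, adjusted p = 0.524 by edgeR), at 50.1 ± 21.5 against 82.2 ± 37.1 CPM (SD, n = 8 and 5), and stood at -0.44 without TUMOUR STD replicate 10, where the call was lost. Of 23 tested genes of triglyceride and phospholipid assembly, 16 lay higher and 7 lower in CHEMO FO than in CHEMO STD, and 0 were called by edgeR, or 1 without CHEMO FO replicate 18 or 20. Pnpla3, a lipid droplet acyltransferase and lipase and a known SREBP-1 target, was called higher in CHEMO FO than in TUMOUR STD (1.66, SE 0.723, adjusted p = 0.524 by edgeR), and this was 0.23 without CHEMO FO replicate 20, which had 17.6 CPM where the next sample had 3.67. The genes of these and the following lists were named after their values were seen.

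Of 20 tested genes of cholesterol synthesis and uptake, the targets of the related factor SREBP-2, 11 lay higher and 9 lower in CHEMO FO than in CHEMO STD with 0 called (median 0.02 on the log2 scale). Against TUMOUR STD, Sqle, the squalene epoxidase, was called lower in CHEMO FO (-0.89, SE 0.369, adjusted p = 0.516 by edgeR), and the call was lost without TUMOUR STD replicate 10 (-0.66). Genes of fatty acid oxidation, the opposite arm of fat metabolism, lay mostly higher in CHEMO FO than in CHEMO STD (17 of 19 tested) with 0 called. Their median log2 fold change was 0.14, beside -0.01 over all genes, of which 48.7% lay higher. Against TUMOUR STD, 8 of the 19 lay higher in CHEMO STD (median -0.08) and 11 in CHEMO FO (median 0.10). Pdk4, a kinase that turns muscle from glucose to fatty acid oxidation, and Angptl4, a lipoprotein lipase inhibitor, were called higher in CHEMO FO than in TUMOUR STD (1.89, SE 0.731, adjusted p = 0.503 by edgeR, and 1.54, SE 0.683, adjusted p = 0.529). Pdk4 had 1050 and 1120 CPM in CHEMO FO replicates 17 and 18 and 58.3 to 184 CPM in the other CHEMO FO samples. Its median was 111 CPM in CHEMO FO and 112 CPM in TUMOUR STD (24.4 to 135). The medians of Angptl4 were 6.28 CPM in CHEMO FO and 7.99 CPM in TUMOUR STD, so in neither gene was the CHEMO FO median the higher. Angptl4 stood at 0.83 without CHEMO FO replicate 17 and 1.30 without replicate 18, and lost its call in both cases. Those 2 samples also had the lowest Srebf1 and the lowest Fasn of the study.

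Among the remaining cell type lists, 12 macrophage, 3 keratinocyte, 1 hepatocyte and 12 muscle fibre markers were tested. In CHEMO FO versus CHEMO STD the macrophage gene Lyz2 was called lower (log2 fold change -0.80, SE 0.231, adjusted p = 0.974 by edgeR), while CHEMO STD exceeded TUMOUR STD with a call of its own (0.72, adjusted p = 0.719). Both calls rest on CHEMO STD replicate 7, which had 170 CPM against 45.9 to 68.6 in the rest of its group, and without it the changes were -0.39 and 0.31. In the diet comparison no marker of the other 3 lists was called. The keratinocyte genes Dsp and Sbsn were called lower in both chemotherapy groups than in TUMOUR STD (Dsp -3.47 and -2.66, Sbsn -3.57 and -1.98), but without TUMOUR STD replicate 10 stood at -0.22 and 0.64 (Dsp) and -0.87 and 0.72 (Sbsn). The slow fibre myosin Myh7 was called lower in CHEMO STD (-0.94) and in CHEMO FO (-0.61) than in TUMOUR STD, with adjusted p of 0.719 and 0.524 by edgeR, and the second call was lost in 8 of the runs that left out 1 library (-0.45 without TUMOUR STD replicate 10). Cd163 and Lyve1, of macrophages, were called higher in CHEMO FO than in TUMOUR STD (1.22 and 0.85), and without CHEMO FO replicate 18 stood at 0.35 and 0.27. Hepatocyte markers, a check for liver RNA where the pathway is most active, summed to 62.3 to 132 CPM over all samples, but transferrin (Tf) alone made up 61.3 to 127 CPM of it. Albumin (Alb) was at most 2.54 CPM, Apoa1 at most 0.946 CPM and Apoa2 at 0 throughout.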

How the data were processed

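Gastrocnemius RNA was sequenced as 20 rRNA-depleted, stranded libraries. Per the labels, the authors called bases with CASAVA 1.9, trimmed adapters with Trim Galore 0.4.1, checked reads with FastQC 0.11.4 and aligned them with TopHat2 2.0.10 and Bowtie2 to Rnor 6, then counted reads on Ensembl genes in Partek Flow and deposited unnormalised integer counts per gene. Counting settings, including strand use, were not given in the sources used here. Rows without a gene name (388 of 32883) were left out.

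CHEMO STD replicates 1 and 2 were summed. Low genes were removed with filterByExpr (at least 10 counts, total of 15), libraries were scaled by TMM, and the 3 conditions fitted together with the quasi-likelihood test (R 4.3.3, edgeR 4.0.16). A gene was called at p below 0.05 and at least 1.5-fold, the thresholds of the study, which used DESeq2. Log2 CPM used a prior count of 2. Correlations used 100000 permutations within conditions. Alternatives were DESeq2 1.42.0, limma 3.58.1 voom with quality weights, RLE factors, other filters, only 2 conditions in the fit, replicates 1 and 2 separate or left out, and each library left out. DESeq2 ran with its default settings, under which outlying counts in CHEMO FO can be replaced. Leaving out CHEMO FO replicates 18 and 20, or TUMOUR STD replicate 10 with CHEMO FO replicate 16, was chosen after seeing the data. The scripts were tested on simulated data. Figures used matplotlib 3.10.9.

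The members and gene lists were chosen with earlier results of these data known. By rule, all members were named, with the listed genes called in CHEMO FO versus CHEMO STD and the most alike genes. The labels do not say which libraries came from separate extractions, so p-values measure the spread between these samples. Some listed genes are not reported here.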

Additional observations from a re-analysis of the deposited data

Results flagged for a closer look

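Within-group outliers were looked for with Dixon's test on log2 CPM in 27 groups (9 genes in 3 conditions), of which 3 passed the 95% critical value. Chance alone passes about 1 in 20 groups. All 3 lay in CHEMO FO. Acly in CHEMO FO replicate 20 (89.6 CPM) lay apart from the next sample by 0.633 of the range of its group, and Acaca in the same sample (84.2 CPM) by 0.549. Srebf1 in CHEMO FO replicate 18 (20.9 CPM) lay below the next sample by 0.544 of the range. In replicate 20 Adipoq was at 84.2 CPM and the adipocyte marker sum at 2820 CPM, the highest of that sum. In replicate 18 the muscle fibre marker sum was 160000 CPM and the adipocyte sum 823 CPM, the lowest of all samples, the macrophage sum was 893 CPM, the highest, and Pdk4 (1120 CPM) and the SREBP retention factor Insig1 (139 CPM) were also highest. The low adipocyte sum lay mostly in Gpd1, at 199 CPM against 906 or more elsewhere. Plin1 (0.545 CPM) and Lep (0.0909 CPM) were also lowest there. Fabp4 (91.2 CPM), Plin4 (226 CPM) and Adipoq (4 CPM) lay within the range of the other samples. The part of any of these in the Srebf1, Acaca and Acly values was not tested.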

How the results depend on the processing

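The 9 members gave 279 alternative values in each comparison. In CHEMO FO versus CHEMO STD 240 kept direction and side of the threshold and 39 changed sign, in CHEMO STD versus TUMOUR STD 269 and 8, with 2 newly called, and in CHEMO FO versus TUMOUR STD 260 and 16, with 3 losing the call (Fads2). No paired analysis was possible because the replicate numbers are not shared between the groups.

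In CHEMO FO versus CHEMO STD, DESeq2 gave -0.37 for Fasn. Voom gave 0.04 for Elovl5 and -0.30 for Scd, and log2 CPM -1.26 for Scd and -0.26 for Srebf1. Elovl5 was 0.02 without CHEMO STD replicates 1 and 2, and with both kept separate Acaca was 0.01 and Me1 0.02. Without a filter Acaca was 0.00 after rounding. Without CHEMO FO replicates 18 and 20, Scd was -1.19, Fasn -0.26, Acly -0.07 and Elovl5 0.04. Without TUMOUR STD replicate 10 and CHEMO FO replicate 16, Fads1 was -0.06 and Me1 0.04.

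In CHEMO STD versus TUMOUR STD, voom gave 0.21 for Scd and 0.01 for Acaca, and leaving out those last 2 samples gave 0.31 for Scd, 0.17 for Fasn and 0.02 for Acaca. In CHEMO FO versus TUMOUR STD, DESeq2 gave -0.60 for Fasn, voom 0.00 for Elovl5, -0.09 for Scd and 0.06 for Acly, and log2 CPM -1.48 for Scd, -0.29 for Fasn and -0.03 for Srebf1. Without CHEMO FO replicates 18 and 20, Scd was -1.62 and Fasn -0.52, and without TUMOUR STD replicate 10 and CHEMO FO replicate 16 Acly was 0.17. The cause of these changes was not tested.

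With 1 library left out at a time, CHEMO FO versus CHEMO STD ranged from -0.06 to 0.16 for Fads1, -0.27 to 0.07 for Acaca, -0.09 to 0.04 for Me1, -0.11 to 0.07 for Elovl5, -1.43 to 1.79 for Scd, -0.42 to 1.42 for Fasn, -0.04 to 0.30 for Acly and -0.07 to 0.30 for Srebf1. CHEMO STD versus TUMOUR STD ranged from -1.41 to 0.31 for Scd, -0.72 to 0.17 for Fasn and -0.17 to 0.02 for Acaca. CHEMO FO versus TUMOUR STD ranged from -0.35 to 0.01 for Acaca, -0.32 to 0.14 for Acly, -1.84 to 1.10 for Scd, -0.66 to 1.11 for Fasn, -3.66 to 0.64 for Dsp and -2.26 to 0.72 for Sbsn. The count of members called ranged from 0 to 1 in both comparisons with TUMOUR STD. The count of all genes called ranged from 161 (TUMOUR STD replicate 10 left out) to 530 (TUMOUR STD replicate 8) in CHEMO STD versus TUMOUR STD, and from 273 (CHEMO FO replicate 18 left out) to 584 (TUMOUR STD replicate 11) in CHEMO FO versus TUMOUR STD.

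Across all genes, 195, 279 and 422 were called in CHEMO FO versus CHEMO STD, CHEMO STD versus TUMOUR STD and CHEMO FO versus TUMOUR STD. Without a filter, where more genes were tested, these were 722, 971 and 1116, without the fold threshold 528, 762 and 1059, and at an adjusted p below 0.05 they were 0, 0 and 0, with no member called (0). DESeq2 gave 11 past the adjusted threshold in the last comparison. CHEMO STD versus TUMOUR STD gave 603 without CHEMO STD replicates 1 and 2 and 170 without TUMOUR STD replicate 10 and CHEMO FO replicate 16, and CHEMO FO versus TUMOUR STD 249 without CHEMO FO replicates 18 and 20. Fads2 lost its call by voom (0 members called) and by the exact test. Depth limits Fads2, which had as few as 20 counts in a library.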
